A study of Mus musculus with 26 samples.

Results

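The endothelium described here is that of the kidney in mice that carried a J558L tumour elsewhere in the body, a vascular bed far from the cells that released interferon gamma (IFNγ). It was chosen by the sample titles and comprises 6 of the 26 arrays of the series, 3 from mice whose tumours had not been induced (0 h) and 3 taken 24 h after the tumour cells had been induced to release IFNγ fused to green fluorescent protein. The mice of both groups were female, 4 to 6 months old and Rag-/-, so that they lacked mature T and B cells, and carried the IFNγ receptor on all cell types. J558L, a plasmacytoma line, had been engineered so that the IFNγ-GFP fusion could be switched on, and tumours had reached about 1 cm across. Endothelial cells were sorted as positive for CD31 and CD146, 5000 to 15000 cells a sample, and about 500 pg of RNA was amplified over 12 cycles. The comparison asks how normal endothelium outside the tumour responded within 24 h. Endothelium of J558L tumours in mice of the same genotype (2 arrays at 0 h, 3 at 24 h) was sampled at the same times. The labels do not state whether each array came from its own animal, so the p-values measure a spread between arrays that may in part be technical. Unless said otherwise, that spread and the standard errors were estimated within the groups of all 26 arrays, tumour arrays included, and not from the 6 kidney arrays alone. With the receptor on all cells of the host, endothelial cells and other kidney cells could all receive the cytokine.

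IFNγ is made mainly by T cells and natural killer cells, and binds a receptor that signals through the JAK-STAT pathway. Transcription factors of the interferon system bind DNA elements named GAS and ISRE. Genes switched on in this way include guanosine triphosphatases that attack the vacuoles of intracellular pathogens, DNA-sensing proteins of the Ifi200 family, antigen-processing factors and enzymes that consume tryptophan. The kidney's endothelium is divided among glomerular capillaries, the peritubular capillaries that take up what the tubules reabsorb, the straight vessels of the medulla and the larger arteries and veins, and it carries enzymes of the renin-angiotensin system on its surface.

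The deposited values are log2 expression per probe set, and the table used here covers only part of the array, so that nearly all genes lie on chromosomes 1, 10, 11, 12 and 13. Probe sets of 5109 genes could be told from those of other genes, and 4386 of these genes passed a filter on low values and were tested. Every difference below is a log2 difference, 24 h minus 0 h, followed by its standard error, and was tested with limma, with the adjusted p corrected over the 4386 genes and a threshold of 0.05. Array medians were 6.33 to 6.40, and a value near or below them has no sure size. Pecam1, which encodes the CD31 used for the sort, read 13.80, 13.88 and 13.87 at 0 h and 13.82, 13.70 and 13.78 at 24 h, among the brightest genes of every array. Ifng itself read 6.36, 5.87 and 5.74 at 0 h and 6.89, 6.08 and 6.50 at 24 h, near the array medians, and did not pass (+0.50, limma adjusted p = 0.377). Mcam, which encodes CD146, was not analysed here. The arrays of a group correlated with each other at 0.952 to 0.971 over the 4386 genes tested, and the first principal component of the 6 arrays (36.4% of their variance) separated 24 h from 0 h. The second component (23.4%) set 0 h array 1 at 24.93, apart from the other 0 h arrays at -13.91 and -15.71.

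Kidney endothelium changed in both directions. Of 4386 genes, 72 rose (1.64%) and 67 fell (1.53%), together 139 or 3.17% of those tested. The genes that rose had a median of +1.31, and those that fell a median of -1.17. Among them 93 changed by more than 2-fold, 52 upwards and 41 downwards, but beyond 4-fold there were 15 rises against 5 falls. The larger rises included Serpina3f, Calhm6 and members of the Ifi200 family, genes known from interferon responses, and the falls included Car4, Ace, Cxcr4, Prelp and laminin genes. All 139 genes had 24 h arrays that lay wholly above or below the 0 h arrays, as did 10.7% (above) and 12% (below) of all genes tested.

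At an unadjusted p under 0.05 there were 602 of the 4386 genes, where 219.3 would be met by chance. Counts of list members at an unadjusted p under 0.05, given below, are to be read against that share of all genes. Between 69 (without 0 h array 2) and 103 (without 0 h array 1) genes passed when 1 array was left out, with 77 without 0 h array 3, and 91, 80 and 85 without 24 h array 1, 2 or 3. Without 0 h array 1, the array that stood apart, 88 of the 139 genes still passed. In all 6 of these fits 50 genes passed, 31 that rose and 19 that fell, so a gene below said to hold in every such fit is 1 of these 50. In a fit of the 6 kidney arrays alone, with no other group in the estimate of spread, 67 genes passed, 51 of the 139 among them. Genes that held with any array left out but missed the threshold in that fit were Slfn9 (limma adjusted p = 0.0524), Ulbp1 (0.0529), Alox12 (0.0532), Ifi211 (0.0578), Per1 (0.0578), Tmem200a (0.0578), Cavin2 (0.0657), Ace (0.0677), Car4 (0.0772), Cxcr4 (0.0772), Ppa1 (0.0772) and Plpp2 (0.0843).

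**Figure D1:**
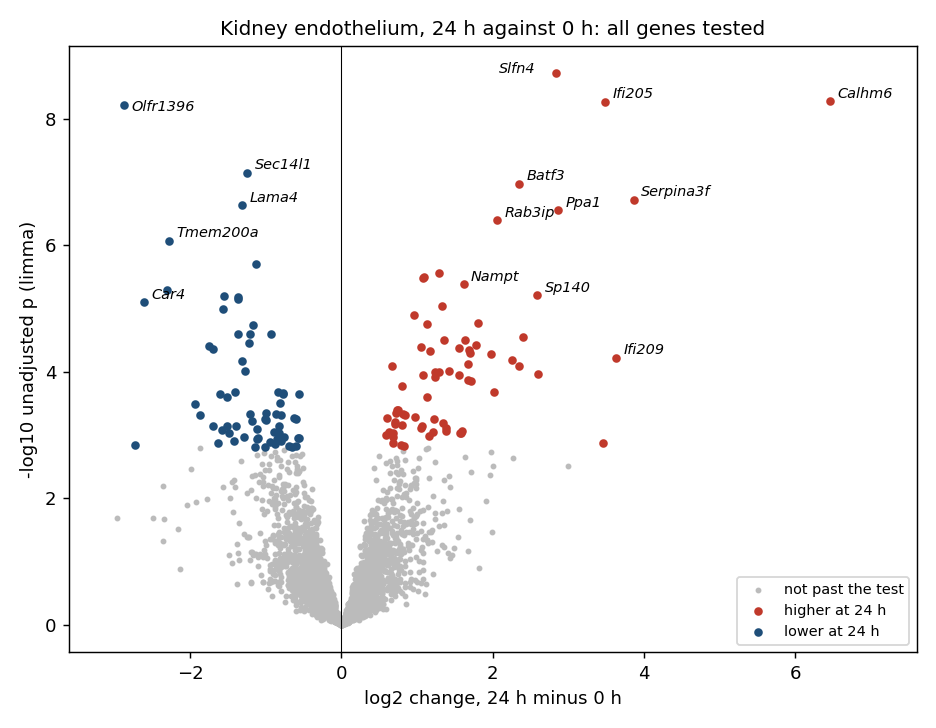
Difference between 24 h and 0 h in kidney endothelium (log2, x axis) against the unadjusted limma p (negative log10, y axis) for the 4386 genes, 1 point a gene. The 72 genes that rose and the 67 that fell are coloured, and the rises reach further from 0 than the falls, up to +6.46 for Calhm6 against -2.87 for Olfr1396.

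The Ifi200 family held the most rises. Its proteins, encoded side by side on chromosome 1, carry domains that bind DNA or assemble with one another, and several are sensors of foreign DNA or regulators of transcription. Of 12 members tested, 9 rose and none fell, with a median of +1.74 against +0.01 over all genes, and all 12 had a fitted difference above 0. The genes resemble one another closely, so a probe set may in part read a relative, and the members are not fully separate measurements.

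Ifi205 read 8.71, 8.46 and 8.59 at 0 h and 12.14, 12.11 and 11.97 at 24 h. The arrays of each time lay close together and the groups were far apart, with a rise of 3.49 ± 0.36 (11.2-fold, limma adjusted p = 6.78e-06) that all 3 probe sets shared and that was 4.17 in their average. Ifi209 read 7.05, 7.64 and 6.28 at 0 h and 10.78, 9.93 and 11.16 at 24 h. Its spread was wider than that of Ifi205 but the groups did not overlap, with a rise of 3.63 ± 0.72 (12.4-fold, limma adjusted p = 0.00592) shared by 4 of 4 probe sets. Ifi208 read 6.78, 4.00 and 7.49 at 0 h and 9.18, 8.74 and 10.72 at 24 h. The 0 h arrays of Ifi208 straddled the array medians, so the size of its rise of 3.46 ± 0.93 (limma adjusted p = 0.0452) is uncertain, and it passed only without 0 h array 3 when 1 array was left out (adjusted p 0.0638 to 0.25 otherwise). Ifi206 read 9.74, 9.31 and 9.98 at 0 h and 11.62, 11.59 and 11.86 at 24 h, a rise of 2.01 ± 0.45 (limma adjusted p = 0.0143). All 24 h arrays of Ifi206 exceeded every 0 h array, although the adjusted p was 0.0683 without 0 h array 2 and 0.0609 without 24 h array 3.

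The other members were chosen for description after their values were seen. Ifi211 rose by 1.77 (limma adjusted p = 0.00465) and Ifi204 by 1.70 (limma adjusted p = 0.00516), both in every fit with an array left out. Ifi203 rose by 1.58 (limma adjusted p = 0.0367) and Ifi207 by 1.39 (limma adjusted p = 0.0337), but neither passed whichever array was left out (0.0823 to 0.139 and 0.0607 to 0.139). Mndal, already bright at 0 h with a mean of 11.90, rose by 0.74 (limma adjusted p = 0.0242), and missed the threshold without 0 h array 2 or 3 or 24 h array 1 or 3 (0.0537 to 0.114). Ifi213 differed by +1.96 without passing (limma adjusted p = 0.0939). Aim2, whose product senses cytosolic DNA and starts the inflammasome, differed by +0.03, with groups that overlapped. The count of members that rose went from 9 to between 4 and 6 with 1 array left out, and was 6 without 0 h array 1.

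The stretches below show what the promoters of these neighbouring genes have in common. Each is RefSeq sequence of GRCm38.p6, 5′ to 3′ on the gene's own strand, from within the 250 bases before the annotated start, and capitals mark a match to an ISRE (GAAA, any 2 bases, then GAAA). Of the 9 family members that rose, 8 have a promoter in the RefSeq table and 7 of these hold such a match, all but Ifi209. In 6 of the 7 the match is followed directly by gctatgaac, and Ifi207 carries other letters there. Mndal has 2 annotated starts with a match before each: 1 of these windows is the same sequence as that of Ifi203 and is not printed again, and the other, which lacks gctatgaac, is the last one below with its match on the opposite strand (TTTC, any 2 bases, then TTTC).
Ifi205, chr1:174031860-174031909, minus strand: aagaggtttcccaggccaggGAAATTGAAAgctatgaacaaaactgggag
Ifi211, chr1:173913054-173913103, minus strand: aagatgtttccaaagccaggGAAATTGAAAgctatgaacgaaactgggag
Ifi207, chr1:173741821-173741870, minus strand: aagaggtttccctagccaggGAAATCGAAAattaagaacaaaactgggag
Ifi206, chr1:173491329-173491378, minus strand: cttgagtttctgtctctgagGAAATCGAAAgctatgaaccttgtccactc
Ifi208, chr1:173673587-173673636, plus strand: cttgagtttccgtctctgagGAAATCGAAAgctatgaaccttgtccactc
Ifi203, chr1:173942498-173942547, minus strand: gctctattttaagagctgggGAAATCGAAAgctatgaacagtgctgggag
Mndal, chr1:173879983-173880032, minus strand: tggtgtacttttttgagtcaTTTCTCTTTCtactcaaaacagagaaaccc

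Interferon-inducible GTPases, which coat and disrupt the vacuoles of intracellular microbes, were already bright in the kidney at 0 h. Of 8 measured members, 3 rose, 7 were at an unadjusted p under 0.05 and all 8 had a fitted difference above 0. In 7 the 24 h arrays all lay above the 0 h arrays, as they did in 10.7% of all genes. The median was +1.18. Gm12250, also known as Irgb10, read 10.58, 9.48 and 10.55 at 0 h and 12.45, 12.41 and 12.52 at 24 h, a rise of 2.25 ± 0.45 (limma adjusted p = 0.00614). At 0 h array 2 lay below the others, and without it the adjusted p was 0.0527. Igtp (Irgm3) read 12.52, 12.08 and 12.40 at 0 h and 13.52, 13.58 and 13.57 at 24 h, a rise of 1.22 ± 0.30 (limma adjusted p = 0.028) shared by 7 of 7 probe sets. Irgm1 read 11.36, 11.28 and 11.41 at 0 h and 12.54, 12.43 and 12.55 at 24 h, a rise of 1.16 ± 0.30 (limma adjusted p = 0.0395). In both genes the groups were tight and well apart, but Igtp passed only without 0 h array 1 (0.0692 to 0.114 otherwise) and Irgm1 did not pass whichever array was left out (0.0928 to 0.129). Irgm2 (+0.98, limma adjusted p = 0.101), Ifi47 (+0.64, 0.286) and Gm12185 (+1.98, 0.306), named after their values were seen, did not pass in the main fit. In the fit of the kidney arrays alone Gm12185 (limma adjusted p = 0.016), Irgm2 (0.0487), Igtp (0.032) and Irgm1 (0.0256) passed, and Ifi47 did not (0.117). Gm12185 (0.00969) and Irgm2 (0.0103) also passed in the average of their probe sets, and Ifi47 did not (0.275). The number of GTPases that rose was 0 to 2 with an array left out, and 2 without 0 h array 1.

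The promoters of the 3 GTPases that rose each hold an ISRE, and those of Gm12250 and Igtp also hold a GAS (TTCNNNGAA). The stretches are again RefSeq GRCm38.p6, 5′ to 3′ on the gene's strand, with matches in capitals, and an ISRE on the opposite strand reads TTTC, any 2 bases, then TTTC. In Irgm1 a pair of ISRE matches overlap and share 4 bases.
Gm12250, chr11:58183732-58183826, plus strand: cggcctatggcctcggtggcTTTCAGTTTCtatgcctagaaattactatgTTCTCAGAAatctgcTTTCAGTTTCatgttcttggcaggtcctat
Igtp, chr11:58199491-58199551, plus strand: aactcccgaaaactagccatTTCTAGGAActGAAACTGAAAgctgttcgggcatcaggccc
Irgm1, chr11:48871421-48871470, minus strand: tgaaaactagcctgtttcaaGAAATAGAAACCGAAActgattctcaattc

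The largest fitted rise of a representing probe set was that of Calhm6, a membrane protein of the calcium homeostasis modulator family. It read 3.07, 4.11 and 3.56 at 0 h, far below the array medians, and 10.13, 10.17 and 9.84 at 24 h. The fitted rise was 6.46 ± 0.67 (88.1-fold, limma adjusted p = 6.78e-06) and held in every fit with an array left out. Because the 0 h value was below the array medians, the fold is not a sure size, and of its 3 probe sets 2 were higher at 24 h and 1 was lower, with a median of +1.24. In the average of its probe sets Calhm6 rose by 2.34 (limma adjusted p = 2.68e-06), less than Serpina3f (4.28), Ifi205 (4.17) or Ifi209 (3.85). Batf3, a transcription factor of the AP-1 family, read 7.38, 6.55 and 6.84 at 0 h and 9.62, 8.81 and 9.38 at 24 h. It rose by 2.35 ± 0.29 (limma adjusted p = 7.84e-05) in all 3 of its probe sets.

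Protease inhibitors of the Serpina3 cluster on chromosome 12 rose in part. Of 10 members tested, 2 rose, with a median of +0.32 over the list. Serpina3f read 9.31, 7.56 and 9.52 at 0 h and 12.62, 12.49 and 12.87 at 24 h, a rise of 3.87 ± 0.50 (14.6-fold, limma adjusted p = 1.19e-04) in 6 of 6 probe sets, and of 3.25 without 0 h array 2. Serpina3g read 9.49, 10.05 and 11.28 at 0 h and 12.88, 12.69 and 13.04 at 24 h, a rise of 2.60 ± 0.54 (limma adjusted p = 0.00865). In both the 24 h arrays were close together while the 0 h arrays ranged widely, and the adjusted p of Serpina3g was 0.0535 without 0 h array 1. In the average of its 4 probe sets Serpina3g rose by 3.38. Serpina3i, named after its value was seen, differed by +1.40 without passing (limma adjusted p = 0.208). Members of the cluster resemble each other, so which of them was read is uncertain.

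The Schlafen genes, whose products restrict translation and cell growth, stand together on chromosome 11, and 3 of 8 rose, with a median of +0.69 and none that fell. Slfn4 read 8.16, 8.16 and 8.37 at 0 h and 10.98, 11.24 and 10.99 at 24 h. Its rise of 2.84 ± 0.28 (limma adjusted p = 6.78e-06) was among the most regular, with narrow groups far apart and 9 of 9 probe sets higher, and it was 1.89 in their average and also with the probe set brightest in the kidney arrays. Slfn9 read 8.48, 10.12 and 8.80 at 0 h and 11.64, 11.33 and 11.64 at 24 h, a rise of 2.40 ± 0.45 (limma adjusted p = 0.00393). Slfn2 rose by 0.83 ± 0.22 (limma adjusted p = 0.0482), but passed only without 0 h array 3 when an array was left out (0.0952 to 0.192 otherwise). Named after their values were seen, Slfn8 (+0.98, limma adjusted p = 0.101) and Slfn5 (+0.29) did not pass. Of the nuclear body proteins of the Sp100 family, which read chromatin, 1 of 3 rose: Sp140, from 9.33, 9.19 and 9.28 to 11.72, 11.93 and 11.92 (2.59 ± 0.43, limma adjusted p = 0.00143). Its groups were narrow and did not overlap, and it held in every fit with an array left out. C130026I21Rik, also on chromosome 1, rose by 2.35 ± 0.48 (limma adjusted p = 0.00717; 0.0565 without 0 h array 2), but by 0.90 in the average of its 6 probe sets, of which 1 was lower. Sp100, named after its value was seen, differed by +0.26, and a probe set of 1 Schlafen or Sp100 relative may in part read another.

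Matches to GAS or ISRE also stand in the promoters of several of these genes. Those printed belong to genes that have a large rise and also hold a match, with the same conventions, and Slfn9 carries its ISRE on the opposite strand. Other genes with large rises, Slfn4, Sp140, C130026I21Rik, Ppa1 and Rab3ip, gave no match. They have either no such element in the window searched or no promoter in the RefSeq table. The matches of Serpina3f and Serpina3g lie in like surroundings.
Calhm6, chr10:34128007-34128056, minus strand: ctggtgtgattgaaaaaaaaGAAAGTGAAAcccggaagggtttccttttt
Serpina3f, chr12:104214403-104214451, plus strand: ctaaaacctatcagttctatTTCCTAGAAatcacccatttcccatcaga
Serpina3g, chr12:104236094-104236142, plus strand: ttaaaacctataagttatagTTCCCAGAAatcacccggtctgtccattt
Slfn9, chr11:82991846-82991895, minus strand: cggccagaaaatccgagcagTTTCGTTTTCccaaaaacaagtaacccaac
Batf3, chr1:191098164-191098203, plus strand: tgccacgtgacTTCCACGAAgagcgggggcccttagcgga

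Over all genes that rose, 66 of 72 have a promoter in the RefSeq table, and 15 (22.7%) hold an ISRE and 8 (12.1%) a GAS within 250 bases before a start. Over the 3574 tested genes with a promoter these shares were 3.41% and 7.22%. Of the 52 genes that fell and have a promoter, 2 (3.85%) hold an ISRE and 5 (9.62%) a GAS. Either element stands in 30.3% of promoters of genes that rose, 13.5% of those of genes that fell and 10.1% of all. Both strands were searched, a gene with several starts counted once, and neighbouring members of a family share sequence and so are not independent. Over genes with a single start the ISRE share was 23.2% of 56 genes that rose against 2.95% of all. The matches are descriptions of letters, and binding was not measured.

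Several genes of metabolism rose. Nampt, the rate-limiting enzyme of nicotinamide salvage to NAD, read 10.98, 11.36 and 11.35 at 0 h and 12.82, 12.90 and 12.82 at 24 h, a rise of 1.62 ± 0.26 (limma adjusted p = 0.00113) in 11 of 12 probe sets. Wars, the transfer RNA synthetase that charges tryptophan, read 12.78, 12.89 and 12.93 at 0 h and 13.95, 13.96 and 13.91 at 24 h, a rise of 1.08 ± 0.23 (limma adjusted p = 0.00881) in 13 of 13 probe sets and of 1.72 in their average. The 24 h arrays of both genes lay close together, near the top of the scale for Wars. Ppa1, which hydrolyses the pyrophosphate released in biosynthesis, read 7.35, 9.66 and 9.17 at 0 h and 11.95, 11.66 and 11.17 at 24 h. It rose by 2.87 ± 0.38 (limma adjusted p = 1.36e-04) in 13 of 13 probe sets, with 0 h array 1 well below the others. Without that array the rise was 2.18, in the average of the probe sets 2.10, and with the probe set brightest in the kidney arrays 1.55. Upp1, uridine phosphorylase, chosen after its value was seen, rose by 1.10 (limma adjusted p = 9.54e-04) in 12 of 12 probe sets. Nampt and Wars were the 2 of 6 effector enzymes of interferon-exposed cells that rose, and Nos2, the inducible nitric oxide synthase, was at -1.19 without passing (limma adjusted p = 0.131). Nos2 passed as lower without 0 h array 1 (-1.78, limma adjusted p = 0.00835), in the average of its probe sets (-1.27, 0.00867) and with array weights (-1.48, 0.00659). It did not pass in the other settings tried.

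Rab3ip, an exchange factor for the small GTPase Rab8, read 8.88, 9.51 and 9.56 at 0 h and 11.04, 11.71 and 11.38 at 24 h, a rise of 2.06 ± 0.28 (limma adjusted p = 1.79e-04) that was 1.47 in the average of its 12 probe sets. The following were chosen after their values were seen. Gdap10, a long noncoding RNA, rose by 1.81 (limma adjusted p = 0.00287), and Alox12, the 12-lipoxygenase of arachidonic acid, rose by 1.68 (limma adjusted p = 0.00693) in 16 of 16 probe sets. Plpp2, a lipid phosphatase, rose by 1.69 (limma adjusted p = 0.00478), and Psmg4, a chaperone of proteasome assembly, by 1.56 (limma adjusted p = 0.00475). Mitd1, which acts at the end of cell division, rose by 1.17 (limma adjusted p = 0.00495) in 14 of 14 probe sets. All 5 held in every fit with an array left out. Tcf7, the transcription factor TCF-1, rose by 1.67 (limma adjusted p = 0.00993) in 14 of 14 probe sets, but not without 0 h array 2 or 3 or 24 h array 2 (0.0539 to 0.0679). Stxbp5, the exocytosis inhibitor tomosyn, rose by 1.23 (limma adjusted p = 0.00837) in 26 of 27 probe sets, with 0.0621 without 0 h array 3. Serpinb9, an inhibitor of granzyme B, rose by 1.21 (limma adjusted p = 0.0367) with 0 h values of 11.26, 11.21 and 11.18 and 24 h values of 12.42, 12.36 and 12.50, but did not pass whichever array was left out (0.0823 to 0.127).

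**Figure D2:**
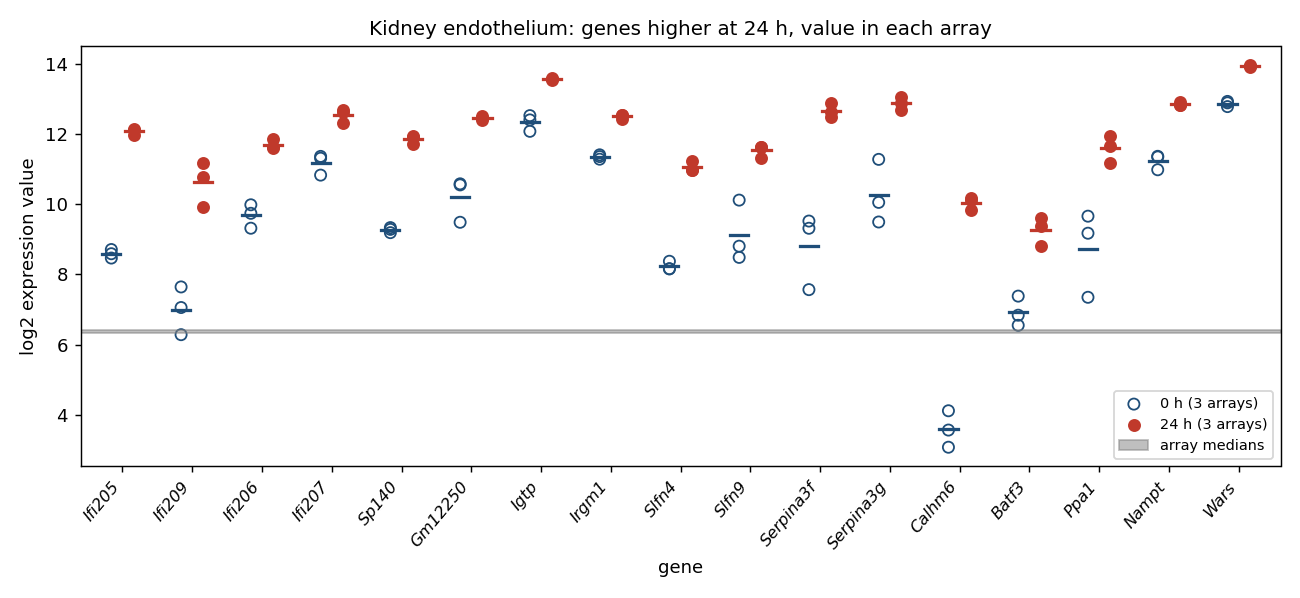
Log2 expression of genes that rose in kidney endothelium, 1 point per array, with 0 h and 24 h arrays in different colours and a bar at each group's mean. The 24 h arrays lie above all 0 h arrays for every gene shown, and Calhm6 starts below the array medians at 3.07 to 4.11.

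Of the 27 listed genes of the IFNγ receptor, JAK-STAT and IRF 12 could be measured here and none of these passed the test. None rose or fell (against 1.64% and 1.53% of all genes), with a median of +0.33, although 9 had a fitted difference above 0 and 3 were at an unadjusted p under 0.05. In 6 of the 12 all 24 h arrays lay above all 0 h arrays, as they did in 10.7% of all genes. Irf1, the first-line transcription factor of the IFNγ response, read 12.74, 12.51 and 12.66 at 0 h and 13.05, 13.09 and 13.04 at 24 h. Its 24 h arrays all lay above its 0 h arrays, but the difference of +0.42 ± 0.22 did not pass (limma adjusted p = 0.407). The receptor chain Ifngr1 was at -0.31 (limma adjusted p = 0.614), the interferon-induced Ifi35 at +0.72 (0.0892) and the suppressor Socs2 at +0.50 (0.414). Stat2 (+0.45), Stat3 (+0.30) and Socs3 (+0.37), named after their values were seen, did not pass either.

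Of 9 antiviral genes 1 rose, and 6 were at an unadjusted p under 0.05 (list median +0.34). Cmpk2, a mitochondrial nucleotide kinase that is induced by interferons, read 12.12, 12.38 and 12.48 at 0 h and 13.16, 13.09 and 13.16 at 24 h. It rose by 0.81 ± 0.19 (limma adjusted p = 0.026) with groups that did not overlap, and passed only without 0 h array 3 when an array was left out (0.0627 to 0.106 otherwise). Dhx58, an RNA sensor (+0.90, limma adjusted p = 0.128), and Xaf1, a pro-apoptotic factor (+0.65, limma adjusted p = 0.0681), named after their values were seen, fell short. Both passed with array weights (0.0153 and 0.0133). Dhx58 also passed with averaged probe sets (0.0265), and Xaf1 with the stricter filter (0.0468), quantile normalization (0.0402) and the trended prior (0.0385). Of 8 measured genes of antigen presentation, most of them proteasome subunits, none passed, 1 was at an unadjusted p under 0.05 and the median was +0.01. The largest difference among these was +1.36 for the proteasome activator Psme2 (limma adjusted p = 0.386), and Psma3 was at +0.43 (0.081). Psma3 passed with averaged probe sets (+0.63, limma adjusted p = 0.00179), the stricter filter (0.047), quantile normalization (0.0417), the trended prior (0.0101) and array weights (0.025). It did not pass in the other settings tried. Genes of the major histocompatibility complex were not analysed here.

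Leukocyte recruitment genes gave 1 fall and no rise. None of 18 chemokine and chemokine receptor genes rose, and Cxcr4 fell, as described below. Ccl5, which attracts T cells and monocytes and is named after its values were seen, read 8.68, 8.66 and 8.40 at 0 h and 10.83, 10.81 and 9.004 at 24 h. All its 24 h arrays were above the 0 h arrays, but 24 h array 3 was close to them, and the difference of +1.63 ± 0.47 missed the threshold (limma adjusted p = 0.0624). It passed without 24 h array 3 (+2.24, limma adjusted p = 0.00894), and with the stricter filter (0.047), quantile normalization (0.0417), averaged probe sets (0.0445), the trended prior (0.0436) and array weights (0.0193). Among 9 selectin and adhesion genes none passed, none was at an unadjusted p under 0.05 either, the median was +0.03, and Itgb4 (-0.48, limma adjusted p = 0.415) and Madcam1 (+0.09) were the furthest from 0 in each direction. The endothelial selectins Sele (+0.03) and Selp (+0.04), with Icam2 (+0.07) and Cd34 (-0.05), all named after their values were seen, lay close to 0. None of 9 NF-kB targets passed (median +0.22), including Ptgs2 at +0.75 (limma adjusted p = 0.532) and Tnfaip3 at +0.34 (0.462), nor did any of 5 interleukin 1 and 18 receptors (0 and 1 at an unadjusted p under 0.05). Of 11 checkpoint and costimulation genes Vsir, which encodes the inhibitory ligand VISTA, fell from 12.00, 11.84 and 11.75 to 11.07, 10.06 and 10.83 (-1.21 ± 0.29, limma adjusted p = 0.026). Its adjusted p was 0.059 to 0.157 without any one of the 0 h arrays or without 24 h array 2.

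Genes that mark compartments of the kidney's endothelium gave 1 fall, that of Car4, and no rise among 6 measured members. Of the 6, 4 were at an unadjusted p under 0.05 and the median was -0.89. In 5 of 6 all 24 h arrays lay below all 0 h arrays, as they did in 12% of all genes. The mean of the 6 was 11.35 at 0 h and 10.27 at 24 h. In a bulk sample, fewer cells of a type and less RNA per cell cannot be told apart. Car4, a carbonic anhydrase on the surface of capillary endothelium, read 8.71, 10.996 and 9.97 at 0 h and 7.14, 7.29 and 7.42 at 24 h. The 24 h arrays were close together, below every 0 h array, and Car4 fell by 2.60 ± 0.44 (6.08-fold, limma adjusted p = 0.00159) in 9 of 9 probe sets. The fall was 2.05 without 0 h array 2, 3.19 without 0 h array 1 and 1.67 in the average of the probe sets. Igfbp5, an insulin-like growth factor binding protein that is abundant in medullary vessels, read 13.85, 14.02 and 13.90 at 0 h and 12.92, 12.83 and 12.15 at 24 h. Its groups did not overlap and all 10 probe sets were lower at 24 h, but the difference of -1.29 did not pass (limma adjusted p = 0.315). Its 0 h values lie at the top of the arrays' scale, whose highest values were 14.01 to 14.11, and in the average of its probe sets it passed at -2.01 (limma adjusted p = 0.00199). Fbln5, an elastic fibre protein of arteries, was at -1.15 with no overlap (limma adjusted p = 0.0927), and at -1.26 in the average (0.00246), and Igfbp5 and Fbln5 are named after their values were seen. Of 4 general endothelial genes none passed and 2 were at an unadjusted p under 0.05, with a median of -0.29, among them Flt4 (-0.39, limma adjusted p = 0.309) and Ptprb (-0.31, 0.229). Ptprb passed in the average of its probe sets (-0.67, limma adjusted p = 0.00305) and with the trended prior (0.0327), and Flt4 passed in neither (0.235 and 0.165).

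Enzymes and receptors of vascular tone gave 1 fall among 8 listed genes (median -0.34). Ace, the angiotensin-converting enzyme of the endothelial surface, read 11.73, 12.09 and 12.47 at 0 h and 11.15, 10.53 and 10.65 at 24 h. The groups did not overlap, and Ace fell by 1.32 ± 0.26 on the log2 scale (2.49-fold, limma adjusted p = 0.00633) in 25 of 25 probe sets and in every fit with an array left out. Bdkrb2, the bradykinin B2 receptor, read 8.50, 7.43 and 6.65 at 0 h and 6.47, 5.72 and 5.65 at 24 h. Its 24 h values were at or below the array medians and its 0 h values ranged widely, so the size of its fall of 1.58 ± 0.40 (limma adjusted p = 0.0355) is uncertain, and it was lost without 0 h array 1 or 2 or 24 h array 2 or 3 (0.0823 to 0.187). In the average of its probe sets it fell by 0.92 (limma adjusted p = 0.00299), and with the probe set brightest in the kidney arrays it was at -0.53 without passing (0.604). Edn1, the vasoconstrictor endothelin, was at -0.41 without passing and is named after its value was seen.

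Basement membrane genes gave 2 falls and no rise among 10 (median -0.25). Lama4, the laminin chain typical of endothelial basement membranes, read 11.97, 11.82 and 11.34 at 0 h and 10.39, 10.45 and 10.36 at 24 h. These 24 h values were close together and clearly below the lowest 0 h value. Lama4 fell by 1.31 ± 0.17 (limma adjusted p = 1.28e-04), a direction that 33 of 37 probe sets shared. The size depended on the probe set: it was at -0.74 in the average (limma adjusted p = 0.00811) and -0.78 with quantile normalization (0.0398). With the probe set brightest in the kidney arrays it was at -0.76 without passing (0.0645). Lamb1 read 10.47, 10.34 and 10.40 at 0 h and 10.16, 9.64 and 9.53 at 24 h, a fall of 0.63 ± 0.15 (limma adjusted p = 0.028) that was lost without any one of the 0 h arrays or 24 h array 2 or 3 (0.0632 to 0.161). Pxdn, peroxidasin, which crosslinks collagen IV and was chosen after its values were seen, read 12.27, 12.32 and 12.31 at 0 h and 10.95, 10.60 and 11.23 at 24 h. It fell by 1.37 ± 0.25 (limma adjusted p = 0.00365) in 21 of 21 probe sets. Col18a1 (-0.60, limma adjusted p = 0.136), Nid1 (+0.02) and Sparc (-0.19), named after their values were seen, did not pass. With an array left out, 1 to 3 members fell.

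Of 16 interstitial matrix genes 3 fell, none rose and the median was -0.08. Prelp, a small leucine-rich proteoglycan, read 10.96, 11.01 and 10.90 at 0 h and 9.06, 9.25 and 9.29 at 24 h, with narrow, separate groups and a fall of 1.76 ± 0.34 (limma adjusted p = 0.00469) in 6 of 6 probe sets and of 1.14 in their average. Fn1, fibronectin, read 12.05, 12.10 and 12.36 at 0 h and 11.59, 11.34 and 11.28 at 24 h, a fall of 0.77 ± 0.17 (limma adjusted p = 0.0148) in 40 of 41 probe sets that was lost without 0 h array 3 or 24 h array 2 or 3 (0.0646 to 0.081). Fmod, fibromodulin, fell by 1.00 ± 0.24 (limma adjusted p = 0.0286), but only 4 of its 8 probe sets were lower and it was lost without 0 h array 3 or 24 h array 2 or 3 (0.115 to 0.143). The number that fell was 1 to 4 with an array left out and 4 without 0 h array 1. Timp3, an inhibitor of matrix proteases, was at +0.02 and is named after its value was seen. The 7 markers of mural cells and fibroblasts, which also make matrix, were summarised by means of 8.50 to 9.10 at 0 h and 8.10 to 8.74 at 24 h. None of them passed here, 1 fell without 0 h array 1, and their part in the matrix falls was not tested.

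Cxcr4, the receptor of the chemokine CXCL12 and a marker of sprouting tip cells, read 10.66, 10.92 and 10.90 at 0 h and 8.85, 9.69 and 9.84 at 24 h. It fell by 1.37 ± 0.23 (limma adjusted p = 0.00143) in 3 of 3 probe sets and in every fit with an array left out, and it was the 1 of 11 tip cell and guidance genes that fell (median -0.30). Several secreted regulators fell as well, chosen after their values were seen. Bmp6, a ligand of the bone morphogenetic protein family that endothelium secretes, read 11.92, 12.30 and 12.32 at 0 h and 11.07, 10.75 and 10.48 at 24 h, a fall of 1.41 ± 0.31 (limma adjusted p = 0.0143; 0.0614 to 0.0792 without 0 h array 2 or 3 or 24 h array 3). Igfbp4, which holds insulin-like growth factors, fell by 1.49 (limma adjusted p = 0.0367), and was lost without 0 h array 2 or 3 or 24 h array 1 or 2 (0.102 to 0.179), and it fell by 0.84 in the average of its probe sets. Tgfb3, a transforming growth factor beta ligand, fell by 1.43 (limma adjusted p = 0.0439) in 9 of 9 probe sets but did not pass whichever array was left out (0.0528 to 0.232).

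The next genes that fell were also chosen after their values were seen. Cavin2, a coat protein of caveolae, the flask-shaped pits of endothelial membranes, read 11.73, 11.82 and 11.65 at 0 h and 10.82, 10.10 and 10.76 at 24 h. It fell by 1.17 ± 0.21 (limma adjusted p = 0.0029) in 4 of 4 probe sets and in every fit with an array left out, but its adjusted p was 0.0526 with the probe set brightest in the kidney arrays. Sec14l1, a lipid-binding protein, fell by 1.24 ± 0.15 (limma adjusted p = 6.34e-05) and passed in every fit with an array left out. Btnl9, a butyrophilin-like protein of capillaries, fell by 1.29 (limma adjusted p = 0.0406) in 11 of 11 probe sets, and passed only without 0 h array 1 when an array was left out (0.0952 to 0.167 otherwise), and not with the probe set brightest in the kidney arrays (0.154). Jup, plakoglobin of cell junctions, fell by 0.76 (limma adjusted p = 0.0406; 0.132 to 0.16 without 0 h array 2 or 3 or 24 h array 1 or 3). Elk3, an ETS factor of endothelium, fell by 0.56 (limma adjusted p = 0.0406; 0.0632 to 0.183 unless the array left out was 24 h array 3), and Atp2b4, a calcium pump, by 0.94 (limma adjusted p = 0.0448; lost whichever array was left out, 0.0822 to 0.168). Mia3, needed to export collagen from the endoplasmic reticulum, fell by 1.00 (limma adjusted p = 0.0258; 0.0503 to 0.147 without any one of the 0 h arrays or 24 h array 3).

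Among the 15 largest falls some have an uncertain size because their probe sets disagreed or their 24 h values lay below the array medians. Olfr1396, an olfactory receptor gene, read 9.21, 9.10 and 9.02 at 0 h and 6.81, 6.12 and 5.77 at 24 h, a fall of 2.87 ± 0.30 (limma adjusted p = 6.78e-06). Its groups were far apart in 2 of 3 probe sets, and the remaining probe set was not lower. Slc16a3, the lactate exporter MCT4, fell by 2.31 ± 0.38 (limma adjusted p = 0.00133), yet 7 of its 11 probe sets were higher at 24 h. Rrm2, a subunit of ribonucleotide reductase, fell by 1.87 ± 0.45 (limma adjusted p = 0.0262) with 8 of 14 probe sets higher, and was lost without 0 h array 1 or 2 or 24 h array 2 or 3 (0.0728 to 0.143). With the probe set that was brightest in the kidney arrays alone, both were above 0 and did not pass (Slc16a3 +0.33, Rrm2 +0.21), and in the average of their probe sets they were at -0.22 and -0.05. Stau2, an RNA-binding protein, fell by 2.73 ± 0.74 (limma adjusted p = 0.0472) with 10 of 23 probe sets higher, and passed only without 24 h array 2 (0.0736 to 0.272 otherwise), with -0.18 in the average. Tmem200a, read by a single probe set, fell by 2.28 ± 0.33 (limma adjusted p = 3.38e-04) to below the array medians.

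Bdkrb2, described above, is also among the largest falls, and its 24 h values were at or below the array medians. The rest of the largest falls lay above the array medians. Mmd fell by 1.94 ± 0.45 (limma adjusted p = 0.0201; 0.0614 to 0.0952 without 0 h array 2 or 3 or 24 h array 2), and Chd3, a chromatin remodeller, by 1.70 ± 0.33 (limma adjusted p = 0.00478) in 27 of 32 probe sets. Fam171a2 fell by 1.55 ± 0.26 (limma adjusted p = 0.00143), and Ulbp1, a ligand of the activating receptor NKG2D, by 1.56 ± 0.27 (limma adjusted p = 0.00186). Chd3, Fam171a2 and Ulbp1 held in every fit with an array left out. In the average of their probe sets the falls were smaller, at -1.23 for Mmd, -0.87 for Chd3, -0.67 for Fam171a2 and, without passing, -0.88 for Ulbp1 (limma adjusted p = 0.0826), -0.59 for Nav3 (0.154) and -0.71 for Tatdn3 (0.364). Nav3 fell by 1.70 ± 0.43 (limma adjusted p = 0.0323) in 22 of 32 probe sets, with 0.109 to 0.192 without 0 h array 1 or 3 or 24 h array 3. Tmem182 fell by 1.60 (limma adjusted p = 0.0148; 0.0776 to 0.102 without 0 h array 2 or 24 h array 3), and by 2.69 with the probe set brightest in the kidney arrays, and Tatdn3 by 1.63 (limma adjusted p = 0.0452; lost whichever array was left out, 0.0553 to 0.18).

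**Figure D3:**
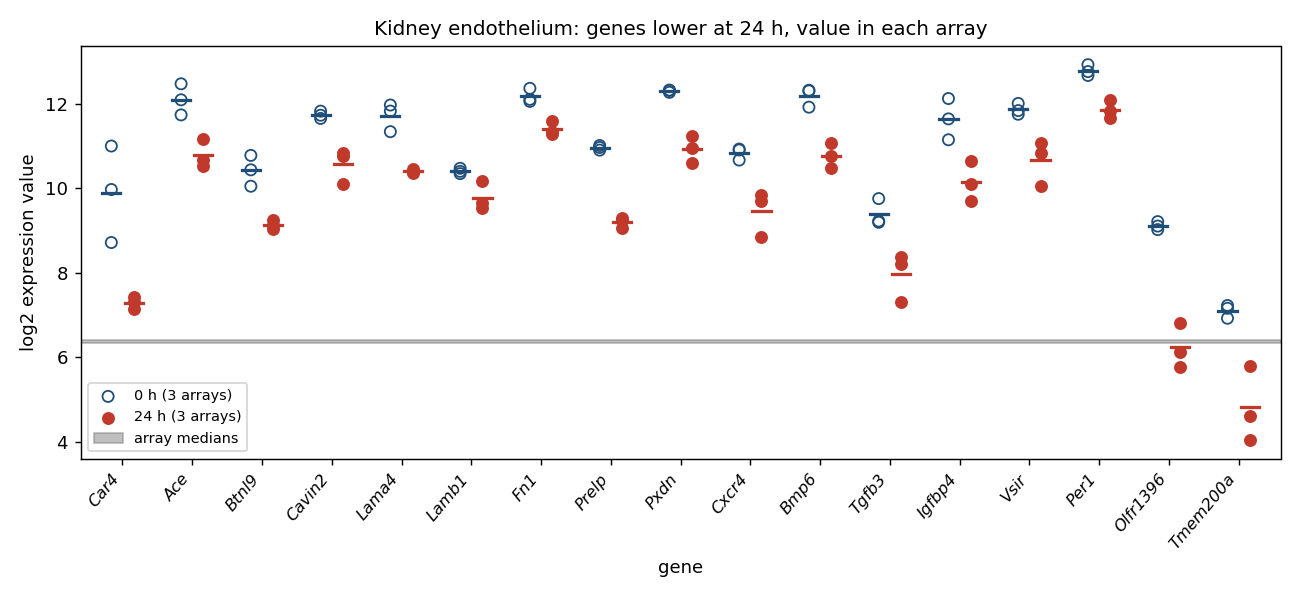
Log2 expression of genes that fell in kidney endothelium, 1 point per array, with 0 h and 24 h arrays in different colours and a bar at each group's mean. The 24 h arrays lie below all 0 h arrays for every gene shown, and those of Car4 gather at 7.14 to 7.42.

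Cell division genes gave 1 fall and no rise in the kidney. Of 16 genes of DNA replication and S phase, Rrm2 alone fell and the median was -0.06. Of 15 mitosis genes none passed and 2 were at an unadjusted p under 0.05, with a median of +0.11, although Top2a, which untangles DNA, was at -1.99 (limma adjusted p = 0.0842). None of 7 replication-dependent histone genes passed (2 at an unadjusted p under 0.05), among them H2bc3 at -1.25 (limma adjusted p = 0.139) and H1f2 at -0.83 (0.0939). Of 16 immediate-early and stress genes 1 rose and 1 fell. Klf6, a zinc finger factor of injured endothelium, rose by 0.68 ± 0.18 (limma adjusted p = 0.0367; lost whichever array was left out, 0.0682 to 0.137). Per1, a clock gene that glucocorticoids also induce, read 12.92, 12.67 and 12.76 at 0 h and 12.08, 11.65 and 11.83 at 24 h, a fall of 0.93 ± 0.17 (limma adjusted p = 0.00365) in 22 of 23 probe sets. Slc16a3 was the only 1 of 13 glycolysis and hypoxia genes that passed. None passed among 8 apoptosis, 10 complement and coagulation and 13 ribosomal protein genes, whose medians were +0.03, +0.02 and -0.0049 and of which 1, 0 and 1 were at an unadjusted p under 0.05.

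Markers of other cells that a kidney sort could hold gave no member past the limma test at an adjusted p of 0.05, against 3.17% of all genes tested. So few markers would hold few calls at that share, and the count does not show that such cells were absent or unchanged. Of 21 leukocyte, macrophage and natural killer cell markers 15 had a fitted difference above 0, 4 were at an unadjusted p under 0.05, the median was +0.36, and their mean was 7.17 to 7.26 in the 0 h arrays and 7.43 to 7.51 in the 24 h arrays. That level was higher in each 24 h array than in any 0 h array, and its part in the rises above was not tested. Prf1, perforin, was at +1.04 (limma adjusted p = 0.207), Slamf8 at +0.99 (0.118), Fcer1g at +0.12, Cd68 at +0.33 and, named after its value was seen, the macrophage and neutrophil marker Lyz2 at -0.96. In the average of their probe sets Prf1 (+1.615, limma adjusted p = 2.32e-04) and Slamf8 (+2.29, 3.05e-05) passed. Fcer1g (+0.37, 0.684) and Cd68 (+0.38, 0.458) did not pass in that average. With the probe set brightest in the kidney arrays Prf1 passed as well (+2.34, limma adjusted p = 0.00387). Mean levels of 5 of the 21 were below the array medians. The 7 plasma cell markers, which J558L cells would carry, had means of 8.39 to 8.46 at 0 h and 8.39 to 8.53 at 24 h. Their ranges overlapped, and 2 of the 7 were at an unadjusted p under 0.05. In 3 all 24 h arrays lay above all 0 h arrays and in 1 all lay below, as in 10.7% and 12% of all genes. Cd79b, also counted with the leukocyte markers, was at +0.76 (limma adjusted p = 0.111). The syndecan gene Sdc1 (-0.65) and Xbp1 (+0.15) did not pass either. The 5 proximal tubule and 4 distal nephron markers had a median of +0.30 and +0.17, 0 members at an unadjusted p under 0.05 and overlapping ranges. No podocyte marker was analysed. Of the 7 mural cell and fibroblast markers 3 had a fitted difference above 0, and the median was -0.11. Among them Col6a3 was at -2.36 (limma adjusted p = 0.355), Des at -0.76 (0.121), Rgs5 at -0.64 (0.687), Col1a1 at +0.17 and Col3a1 at +0.31. Of the 3 erythrocyte and platelet markers 1 was above 0. Itgb3, counted with these, was at -0.60 (limma adjusted p = 0.0612), and Itga2b was at +0.25. Itgb3 passed with the stricter filter (0.0384), quantile normalization (0.032), the trended prior (0.0175) and array weights (0.0253).

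**Figure D4:**
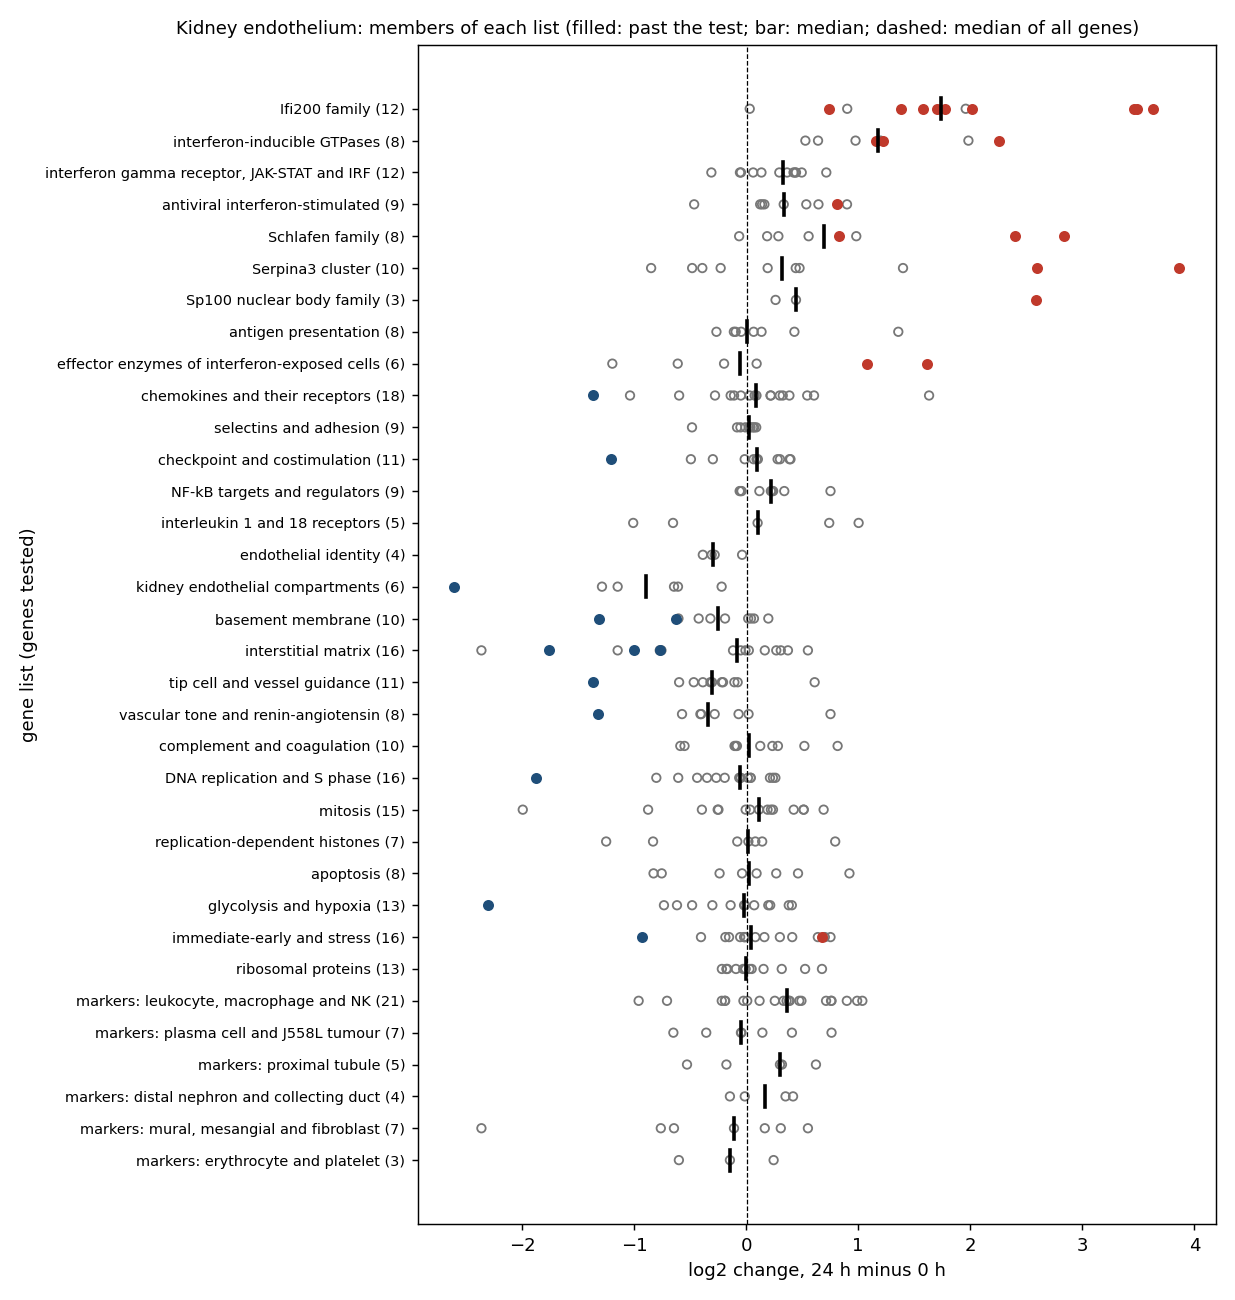
Median log2 difference (24 h minus 0 h) of each gene list in kidney endothelium, with the fitted difference of each member as a point. The Ifi200 family (median +1.74) and the GTPases (+1.18) lie furthest above 0 and the kidney endothelial compartments (-0.89) furthest below, against a median of +0.01 over all genes.

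The response of kidney endothelium was then set against that of endothelium inside the J558L tumour, the site of IFNγ release. Levels were not compared between the tissues, whose arrays differ in median (6.42 to 6.46 in the tumour), only the differences between 24 h and 0 h. Of 4386 genes 1 (0.0228%) differed in response past the threshold, and 210 did at an unadjusted p under 0.05. That gene was Olfr1396, for which the fitted value, kidney minus tumour, was -2.85 (limma adjusted p = 0.0153). In the tumour it read 3.33 and 3.58 at 0 h and 3.46, 3.37 and 3.46 at 24 h, far below the array medians throughout, so a fall there could not have been seen and the value is no measured difference in response. The count was 0 without tumour 0 h array 1, or tumour 24 h array 1 or 3 (151, 184 and 204 genes at an unadjusted p under 0.05 in limma), 6 without tumour 0 h array 2, and 3 without kidney 0 h array 1.

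For the genes that rose in the kidney the interval of this difference is wide. Ifi205 gave a kidney minus tumour difference of 0.32 (95% interval -0.81 to 1.45), Sp140 0.40 (-0.94 to 1.74) and Nampt 0.23 (-0.58 to 1.05), so a difference of more than 2-fold in response lies within each of these intervals. Slfn4 rose by 2.84 in the kidney and was at +0.68 in the tumour, and the difference of 2.16 ± 0.42 did not pass (limma adjusted p = 0.0628). Slfn9 was at -0.14 in the tumour (difference 2.54, limma adjusted p = 0.254). Calhm6 was at +2.52 in the tumour (difference 3.94, limma adjusted p = 0.227). No fall was shown to be particular to the kidney. Car4, at +0.04 in the tumour, differed by -2.65 ± 0.66 (95% interval -4.02 to -1.28, limma adjusted p = 0.227), Fn1, at +0.40 in the tumour, by -1.16 ± 0.26 (0.142), Lama4 by -1.13 ± 0.26 (0.185), Per1 by -1.09 (0.185) and Pxdn by -1.43 (0.255). The cell cycle gene Fbxo5, named after its values were seen, was at +0.19 in the kidney and -2.57 in the tumour, a difference of 2.77 ± 0.52 that did not pass (limma adjusted p = 0.0628).

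In direction, the kidney's genes mostly went the same way in the tumour, whose control arrays are its own. Of the 72 genes that rose in the kidney 69 (95.8%) had a fitted difference above 0 in the tumour, against 48.5% of all genes, and 10 of them passed there. Of the 67 that fell 56 (83.6%) were below 0 in the tumour, against 51.5% of all genes, and none passed; limma called 24 genes (0.547%) in the tumour, 16 of them higher. The 3 genes that rose in the kidney and were below 0 in the tumour were Slfn9, Pnpt1 and 4930417O22Rik, the latter 2 named after their values were seen. The tumour medians of these genes were +0.78 for those that rose and -0.30 for those that fell. Over all genes the differences in kidney and tumour correlated at r = 0.370, as a description across genes, which are not independent replicates.

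**Figure D5:**
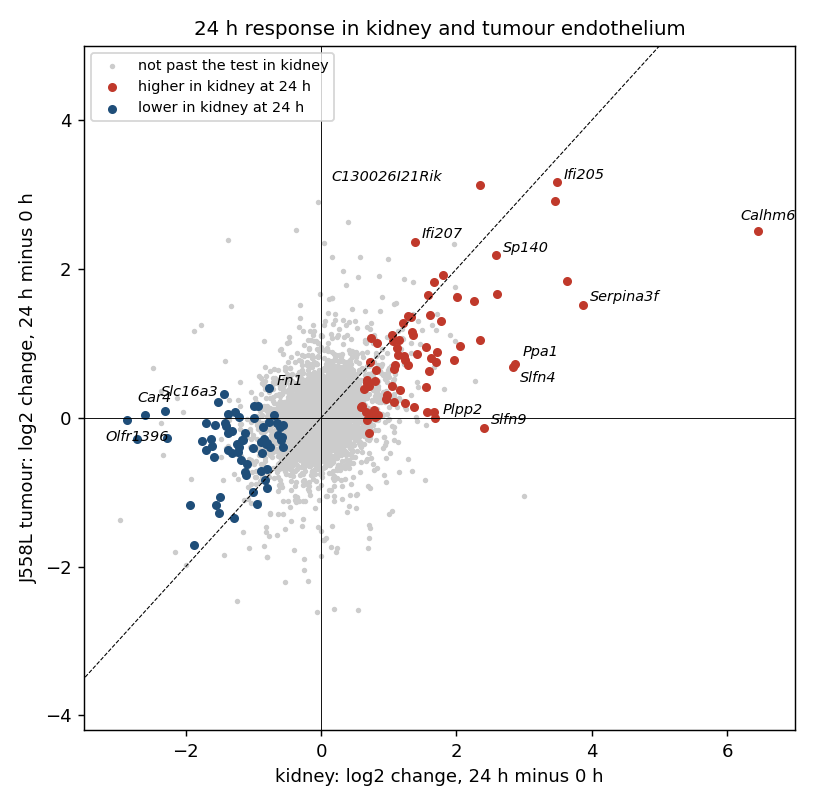
Fitted difference between 24 h and 0 h in kidney endothelium (log2, x axis) against that in J558L tumour endothelium (log2, y axis) for the 4386 genes, with the genes that rose or fell in the kidney coloured. Most coloured genes lie in the quadrants of like sign (69 of 72 and 56 of 67), and Olfr1396 lies at -2.87 in the kidney and near 0 in the tumour.

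Endothelium of the other tumours of the series gave similar directions. MCA313 tumours grew in PIG-Pdgfb-Cre-IFNγ-del mice of the same age, in which endothelial cells alone carry the receptor, and were compared at 24 h of IFNγ release (2 arrays) with no induction (3 arrays). 16.113 tumours grew in Rag-/- mice 3 to 4 months old and were compared 120 h after transfer of tumour-specific T cells that made IFNγ (3 arrays) or did not (5 arrays). Of the 72 genes that rose in the kidney 66 were above 0 in MCA313 endothelium (14 passed) and 64 in 16.113 endothelium (33 passed), where 30 genes (0.684%) and 323 genes (7.36%) passed in all. Over all genes 49.3% and 46.8% were above 0. Ifi205, Ifi207, Mndal, Sp140, C130026I21Rik, Gdap10 and Nampt, 7 of the 72, passed in the kidney and in the J558L, MCA313 and 16.113 tumours. Of the 67 that fell, 56 and 52 were below 0, against 50.7% and 53.2% of all genes, and 1 and 7 passed as lower. Car4 went the other way in MCA313 endothelium, where it rose by 2.16 (limma adjusted p = 0.0421), and Plpp2, which rose in the kidney, fell by 1.65 in 16.113 endothelium (limma adjusted p = 0.00167). Whether these opposite responses differ from the kidney's was not tested.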

How the data were processed

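The deposited values are log2 expression, which the authors had normalized and summarized to probe sets. The submitters' processing notes name Affymetrix Expression Console and limma. The normalization step itself was not given in the sources used here. Pairs of kidney arrays held 1086 to 1570 exact values in common, pairs of J558L tumour arrays 2153 to 2650, and a kidney with a tumour array 0 to 2, so levels were not compared between tissues. There were 65535 probe sets. Of these, 53857 had 1 gene symbol, 766 several and 10912 none in the platform annotation. Of the symbols, 4618 were current in RefSeq GRCm38.p6, 494 were synonyms and 8 did not match. A gene (median 9 probe sets) was represented by its brightest probe set over the 26 arrays and kept where this exceeded the array's 50th percentile in at least 2 arrays.

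Means of the 9 groups were fitted to all 26 arrays with limma 3.58.1 (R 4.3.3), with moderated two-sided tests, Benjamini-Hochberg correction and a threshold of 0.05, and the procedure was tested on simulated data. Precision is limited by the number of arrays. Samples were grouped by title. Genes were named as the 15 largest changes each way among those past the test without overlap, up to 4 members of each list past the test (or 2 of the largest where none passed), check genes, genes called in the difference of responses, and the 3 brightest markers of each marker list, and others are marked as chosen after their values were seen. The members and lists were chosen with earlier results of these data known. Same-numbered kidney samples of 0 h and 24 h did not deviate together (correlations -0.0955, 0.0129 and 0.0668). Same-numbered kidney and J558L tumour samples correlated at 0.0418, -0.0096 and 0.0285 at 24 h, and at -0.036 and -0.094 at 0 h. Numbers were therefore not taken to pair samples. The labels do not state whether kidney and tumour arrays came from the same mice, and the difference of responses took them as independent. Other settings tried were omitting the filter, raising it to the 75th percentile, quantile normalization, averaged probe sets, the brightest probe set in kidney arrays, a trended and robust prior, array weights, a replicate block, the compared arrays alone, and each array left out.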

Additional observations from a re-analysis of the deposited data

Results flagged for a closer look

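For Olfr1396 the kidney difference minus the J558L tumour difference was -2.85 on the log2 scale and passed a limma test of that difference over all genes (adjusted p = 0.0153). In the kidney 3 of 3 arrays at 24 h were below all 0 h arrays. In the tumour all 5 arrays lay far below the array medians, so no tumour response could be measured and the value does not show that the responses differ.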

How the results depend on the processing

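Of the 139 genes called in the kidney, the count was 132 with no filter, 158 with the stricter filter, 160 with quantile normalization, 160 with the trended and robust prior and 118 with the brightest probe set in kidney arrays. It moved to 277 with averaged probe sets (98 of 129 tested called in both), 242 with array weights, 80 with the replicate number as a block (75 shared) and 67 in a fit of the kidney arrays alone (51 shared), and was 69 to 103 with an array left out. The block is shown for the number alone, since the numbers were not taken to pair the samples. The cause of these moves was not tested. For the difference of responses between kidney and tumour, the count of 1 became 3 with the stricter filter, 3 with quantile normalization, 16 with averaged probe sets, 5 with the trended prior, 16 with array weights, 2 with the replicate block, 4 in a fit of the J558L arrays alone and 0 to 6 with an array left out. Rrm2 reversed to +0.21 and Slc16a3 to +0.33 with the brightest probe set in kidney arrays, which reads another part of these genes. Quantile normalization shifted the median by 0.03. Among the genes followed through the settings, 1 that did not pass in the main fit passed in another setting 57 times. With averaged probe sets these included Ifi213 (limma adjusted p = 0.00267), Serpina3i (0.00603) and Ifi35 (0.0153). Of 45 genes named by rule and called, 24 passed in all 6 fits with an array left out and 20 in all 9 other alternatives. Signal over background was not measured, and in 9 called genes the lower group mean was under the array medians.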
